A study of Mus musculus with 8 samples.

Results

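Genes of the perineuronal net and the brain extracellular matrix were examined in the hypothalamus (HT) of male C3H/HeN mice. They were 10 genes chosen by name among 22328 named on the array: the lecticans Acan, Bcan, Ncan and Vcan, the link proteins Hapln1, Hapln2 and Hapln4, the tenascins Tnr and Tnc, and the receptor phosphatase Ptprz1. A probe was taken when it was no control spot and the array files gave it 1 of these 10 names, which held for 16 of 55681 probes, so that 6 genes had 1 probe and the others had several.

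Perineuronal nets are lattices of matrix that enclose the cell body and the proximal dendrites of some neurons, many of them fast-spiking cells that contain parvalbumin. In these nets hyaluronan chains form the backbone, lecticans bind to hyaluronan with their N-terminal domain, link proteins fix that bond, and tenascin-R joins the C-terminal ends of several lecticans. The chondroitin sulfate chains of the lecticans are ligands of receptor phosphatases, and the nets form during postnatal development, as synapses become less plastic. In the hypothalamus, nets are known around neurons of several nuclei, the arcuate nucleus among them.

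The MS group held 4 mice (numbered 5.3, 7.1, 7.2 and 7.6) that had been through maternal separation (MS) together with unpredictable stress of their dam, between postnatal day (PND) 2 and PND 14. The control group held 4 mice without it (6.2, 8.2, 8.4 and 8.5). All 8 were adult males of the same strain, weaned at PND 21, group-housed, trained in an operant feeding task and fasted before collection. For each mouse, 200 ng of HT RNA was labeled with Cy3 and put on its own array. Litter and cage are not stated for these 8 mice, so the p-values rest on the spread among them, whatever its source. MS 7.1, 7.2 and 7.6 share the number before the dot, as do Control 8.2, 8.4 and 8.5. What that number stands for is not given, so mice that share it may not be independent. The comparison asks whether MS left a difference in the mRNA of these matrix genes in adulthood.

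On each array, 34079 to 38724 probes (61.2% to 69.5%) were well above background in MS mice, and 34948 to 39601 (62.8% to 71.1%) in control mice. The arrays lay on 1 slide in 2 rows, each with 2 MS and 2 control mice. The 75th percentile of the signal, which was subtracted from each array on the log2 scale, was 499 to 902 in MS mice and 751 to 856 in control mice, and MS 7.6 was the dimmest array. The 12 hypothalamus markers were well above background on all 8 arrays. Of them, 4 were higher and 8 lower in MS mice, and 0 passed the adjusted test in limma. Lower with an unadjusted p under 0.05 in limma were 2 of the 12, as were 297 of the 17314 genes tested. These 2 were Hcrt (log2 MS minus control -1.45) and Pmch (-0.46), named after their values were seen. In slide rows 1 and 2 the difference was -3.09 and 0.20 for Hcrt, and -0.75 and -0.18 for Pmch. A list of pituitary hormone genes had a mean level of 0.17 to 0.92 on the log2 scale in the 4 MS mice, against 0.17 to 1.29 in 3 control mice and 3.67 in Control 6.2.

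No member gene passed the test between MS and control mice. Of the 16 probes, 14 were well above background on at least 4 arrays and were tested, which left 9 of 10 genes, and 0 of the 14 passed limma at an adjusted p under 0.05 (0% of the 37314 probes tested passed). Without adjustment, 0 of 14 had p under 0.05 (3.4% of all probes tested did). In 0 of 14 did the 4 MS values lie apart from the 4 control values, as they did for 2.03% of all probes tested (0.788% with MS higher and 1.24% with MS lower). The adjusted p of the members was 0.989 to 0.994 in limma. The log2 fold change (MS minus control) lay above 0 for 5 probes and below 0 for 9, against 49.5% and 50.5% of all probes tested, and the sign turned with the scaling, the background correction or the authors' table for Bcan A_55_P1971599, Vcan A_55_P1960208 and Ptprz1 A_51_P206405. With 1 probe per gene, the median log2 fold change of the 9 genes was -0.03, beside 0.01 for the 17314 genes tested. The 95% interval lay within a 1.5-fold change in either direction for 12 of 14 probes, as for 84.0% of all probes tested, and for the brightest probe of each of the 9 genes.

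**Figure D1:**
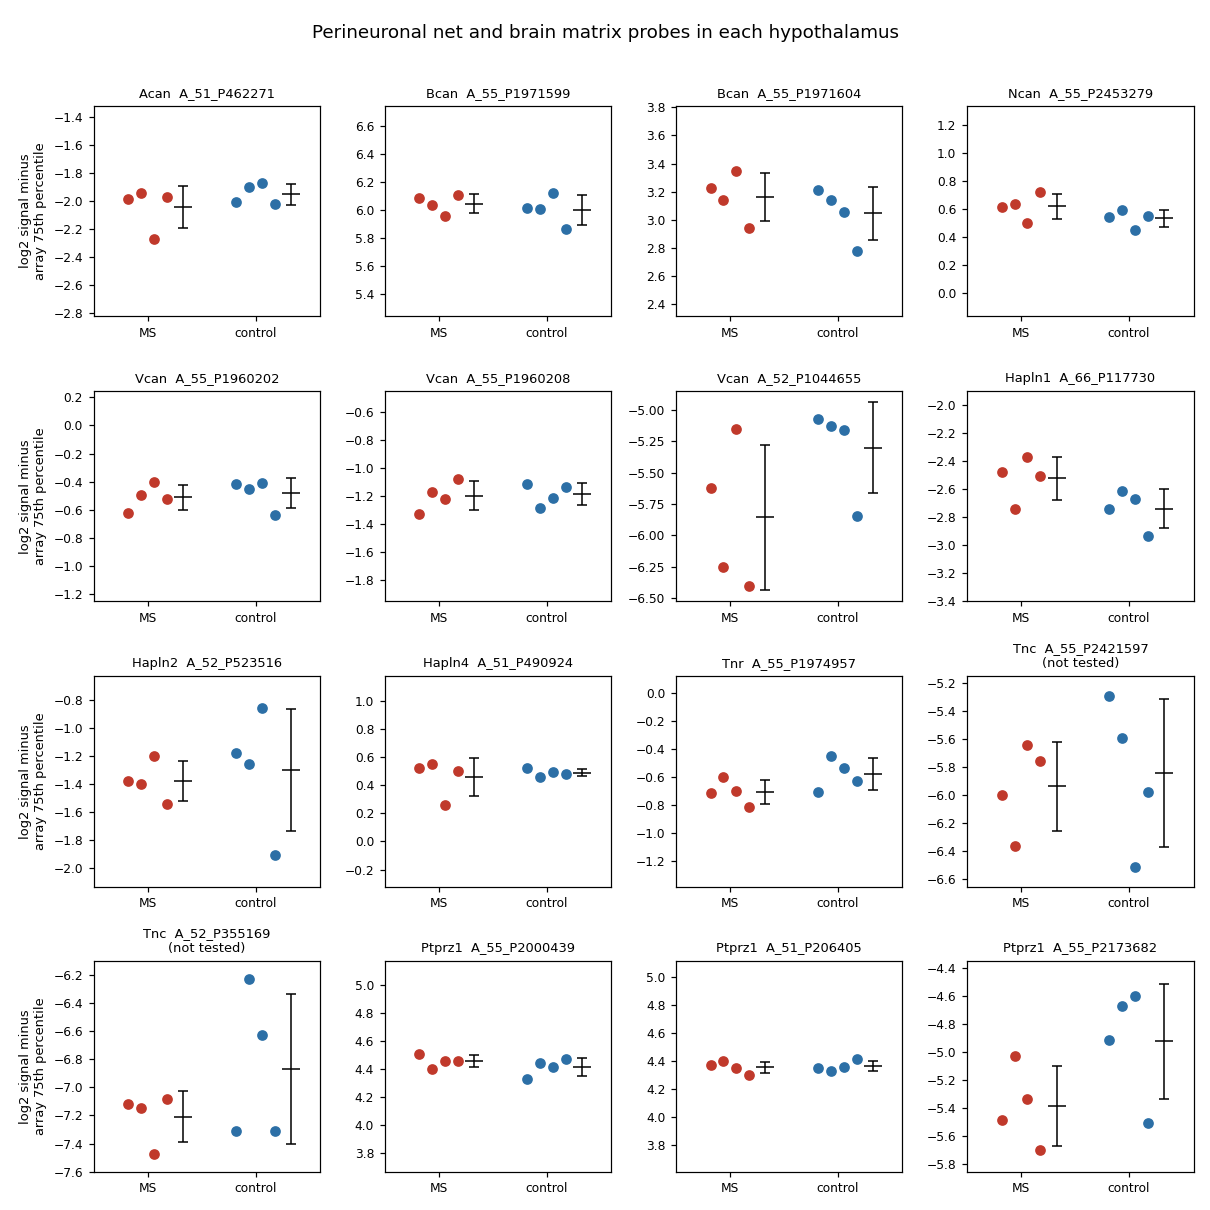
Each panel shows 1 probe, with the log2 signal minus the 75th percentile of the array in the 4 MS mice (red, left) and the 4 control mice (blue, right), each group in the order of its mouse numbers. Bars are the mean and SD of a group. Each panel has its own axis of at least 1.5 log2 units, and in all 16 panels the MS and control values overlap.

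Among the lecticans, Acan encodes aggrecan, the lectican by which perineuronal nets are most often recognized. Its probe A_51_P462271 (chr7:86259741-86259801, mm9, plus strand) gave log2 signals of -1.99, -1.94, -2.27 and -1.97 in MS 5.3, 7.1, 7.2 and 7.6, against -2.01, -1.90, -1.87 and -2.02 in Control 6.2, 8.2, 8.4 and 8.5. This amounted to a log2 fold change of -0.09 (95% interval -0.29 to 0.10, adjusted p = 0.989 in limma). A single mouse, MS 7.2, stood below the others, and without it the difference was -0.02. The difference was -0.24 in slide row 1, which holds that mouse, and 0.06 in slide row 2.

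Bcan encodes brevican, the most abundant lectican of the adult brain, which is known in a secreted form and in a shorter form anchored to the membrane by a lipid. The array files assign its probes to 2 transcript variants. Bases 31 to 60 of each 60-base probe are shown, with the motif AATAAA, the sequence of the polyadenylation signal, in capitals. Whether it serves as that signal in these transcripts was not tested.
Bcan variant 1, A_55_P1971599 (chr3:87791457-87791516, mm9, minus strand): aaccaggtggaAATAAAgttgtctgaaccc
Bcan variant 2, A_55_P1971604 (chr3:87796466-87796525, mm9, minus strand): tgactgtttcatggaaaacaaaccttggaa
The motif AATAAA was searched on both strands of every probe. It was present on the probe strand in 5602 of the 55681 probes and on the other strand in 3.74%, and the members with it were this probe of Bcan and the probe of Ncan.

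The probe of variant 1 gave 6.09, 6.03, 5.96 and 6.11 in MS 5.3, 7.1, 7.2 and 7.6, against 6.02, 6.01, 6.12 and 5.86 in Control 6.2, 8.2, 8.4 and 8.5. Their log2 fold change of 0.04 (-0.12 to 0.20) became -0.01 with quantile normalization. The probe of variant 2 gave 3.23, 3.14, 3.34 and 2.94 in the same MS mice, against 3.21, 3.14, 3.05 and 2.78 in the control mice, a log2 fold change of 0.12 (-0.15 to 0.39). For both variants the lowest mouse of the 8 was Control 8.5, and the groups overlapped.

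Ncan encodes neurocan, a lectican of developing brain that neurons and astrocytes make.
Ncan, A_55_P2453279 (chr8:72618955-72619014, mm9, minus strand): agacctcAATAAAtctcctgcctcagattc
Shown are bases 31 to 60, with the same motif in capitals. Ncan gave 0.61, 0.63, 0.50 and 0.72 in MS 5.3, 7.1, 7.2 and 7.6, against 0.54, 0.59, 0.45 and 0.55 in Control 6.2, 8.2, 8.4 and 8.5. That made a log2 fold change of 0.09 (-0.06 to 0.23, adjusted p = 0.989 in limma). Of the MS mice, only 7.2 lay within the range of the control mice.

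Vcan encodes versican, whose splice forms differ in the region that carries chondroitin sulfate. Its 3 probes lie at different places of the gene, and bases 31 to 60 of each are shown.
Vcan, A_55_P1960202 (chr13:89795080-89795139, mm9, minus strand): atcactgtgttgacttactagggctttttt
Vcan, A_55_P1960208 (chr13:89851810-89851869, mm9, minus strand): atagcagatttgatgcctactgctttaaac
Vcan, A_52_P1044655 (chr13:89850072-89850131, mm9, minus strand): gttcatatgggtacataacatagcaaggtc
The first gave -0.62, -0.50, -0.40 and -0.53 in MS 5.3, 7.1, 7.2 and 7.6, against -0.42, -0.45, -0.41 and -0.64 in Control 6.2, 8.2, 8.4 and 8.5, and its log2 fold change was -0.03 (-0.20 to 0.14). The second gave -1.33, -1.17, -1.22 and -1.08 in the MS mice, against -1.11, -1.29, -1.21 and -1.14 in the control mice, with a log2 fold change of -0.01 (-0.17 to 0.15) that was 0.01 with quantile normalization and with median scaling. Both were above background on all 8 arrays, and their groups overlapped throughout.

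The third Vcan probe was dim, since only 2 MS and 3 control arrays measured it well above background. It gave -5.62, -6.25, -5.15 and -6.41 in MS 5.3, 7.1, 7.2 and 7.6, against -5.07, -5.13, -5.16 and -5.84 in Control 6.2, 8.2, 8.4 and 8.5. Its log2 fold change of -0.56 was the farthest from 0 among the members, but the interval reached from -1.24 to 0.13 (adjusted p = 0.989 in limma, exact permutation p = 0.2). Under the alternative settings it ranged from -0.87 to -0.08.

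**Figure D2:**
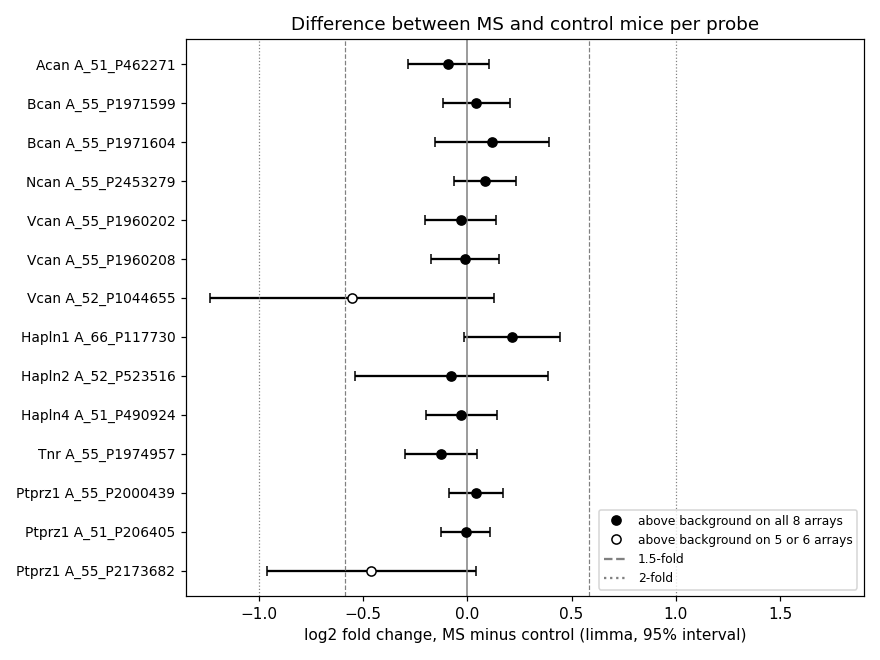
The log2 fold change (MS minus control) of the 14 tested probes is shown as points with 95% intervals from limma. Filled points are probes above background on all 8 arrays and open points the 2 dim probes, dashed and dotted lines mark 1.5-fold and 2-fold, and all 14 intervals include 0.

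Link proteins fix the bond between a lectican and hyaluronan. In the order of the annotation, Hapln2 lies next to Bcan on chromosome 3, Hapln4 next to Ncan on chromosome 8, and Hapln1 next to Vcan on chromosome 13, with 0 coding genes between the partners. The log2 fold changes of the partners were 0.04 for Bcan and -0.08 for Hapln2, 0.09 for Ncan and -0.03 for Hapln4, and -0.03 for Vcan and 0.22 for Hapln1. Each of these intervals included 0.

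Hapln1 encodes the link protein that was first known from cartilage and that in mouse cortex is needed for regular perineuronal nets. Its probe A_66_P117730 (chr13:89751096-89751155, mm9, plus strand) gave -2.48, -2.74, -2.37 and -2.51 in MS 5.3, 7.1, 7.2 and 7.6, against -2.75, -2.61, -2.67 and -2.93 in Control 6.2, 8.2, 8.4 and 8.5. The log2 fold change was 0.22 (SE 0.10, 95% interval -0.01 to 0.45), a ratio of 1.16 of MS over control. It had the smallest p of the members (0.0625, adjusted p = 0.989 in limma, exact two-sided permutation p = 0.0857, where 4 against 4 mice cannot go below 0.0286). The overlap came from MS 7.1, which lay below Control 8.2 and 8.4. The difference was 0.22 in slide row 1 and 0.22 in slide row 2, and the MS values lay above the control values within both rows. In row 2 this rested on -2.741 in MS 7.1 against -2.746 in Control 6.2. Groups apart in both rows in the same direction were found for 1 of the 14 tested member probes, and for 4.65% of all probes tested. The log2 fold change of Hapln1 ranged from 0.15 to 0.29 when each mouse was left out in turn and from 0.16 to 0.24 under the other settings. It passed the adjusted test in none of them.

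Hapln2 encodes a link protein known from the nodes of Ranvier of myelinated axons. Its probe A_52_P523516 (chr3:87826236-87826295, mm9, minus strand) gave -1.38, -1.40, -1.20 and -1.54 in MS 5.3, 7.1, 7.2 and 7.6, against -1.18, -1.26, -0.86 and -1.90 in Control 6.2, 8.2, 8.4 and 8.5. The 4 MS mice lay between the lowest and the highest mouse, which were both control mice. A log2 fold change of -0.08 resulted (-0.54 to 0.39). It was 0.07 without Control 8.4 and -0.28 without Control 8.5.

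With the brightest probe standing for its gene, Hapln2 had the largest SD of the 9 tested member genes over the 8 mice, 0.30 on the log2 scale, larger than in 85.5% of all probes tested. The dim probes of Vcan and Ptprz1 had larger SDs, of 0.54 and 0.41. The level of Hapln2 was correlated with that of myelin genes over the 8 mice. The mean of 12 markers of myelinating oligodendrocytes was 2.74, 2.85, 2.87 and 2.69 in MS 5.3, 7.1, 7.2 and 7.6, against 2.80, 2.87, 2.97 and 2.47 in Control 6.2, 8.2, 8.4 and 8.5. Of the 12 myelin genes, 9 were lowest in Control 8.5 and 8 were highest in Control 8.4, the same 2 mice that were lowest and highest for Hapln2. Of all probes tested, 22.3% were lowest in Control 8.5 and 9.63% highest in Control 8.4. The parvalbumin list was also lowest in Control 8.5 (0.82) and highest in Control 8.4 (1.16). Whether Hapln2 goes with the myelin list more than with other lists was not tested. Pearson's r over the 8 mice was 0.94 (exact permutation p = 0.00136, 0.0136 after Benjamini-Hochberg over 10 relations) and Spearman's rho was 0.79 (exact permutation p = 0.0279, adjusted 0.14). With deviations from the group means, r was 0.95. Without Control 8.4 and 8.5, the 2 mice farthest from the median of the list, r was 0.69 (exact permutation p = 0.146 over 6 mice), so that on this scale the relation no longer passed without them. On the other scales the 2 farthest mice were MS 7.6 and Control 8.5, and without them r was 0.77 with quantile normalization, 0.78 with normexp and 0.83 in the authors' table (exact permutation p = 0.0778, 0.0722 and 0.0431). A slide row holds 4 arrays, too few for a value within a row. In whole tissue, fewer cells of a type and less RNA per cell cannot be told apart.

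**Figure D3:**
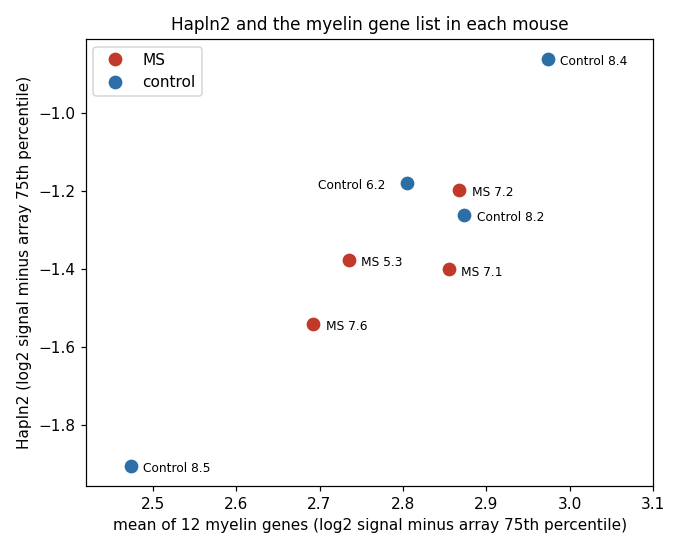
Each point is 1 mouse, with the mean of 12 myelin genes on the horizontal axis and Hapln2 on the vertical axis, both as log2 signal minus the 75th percentile of the array, MS in red and control in blue. The 4 MS mice lie between Control 8.5 at the lower left (2.47 and -1.90) and Control 8.4 at the upper right (2.97 and -0.86).

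Hapln4 encodes a link protein that in mouse brain is known from nets of brainstem and cerebellum, where it goes with brevican. Its probe A_51_P490924 (chr8:72613883-72613942, mm9, plus strand) gave 0.53, 0.55, 0.26 and 0.50 in MS 5.3, 7.1, 7.2 and 7.6, against 0.52, 0.46, 0.49 and 0.48 in Control 6.2, 8.2, 8.4 and 8.5. The control mice lay within a narrow range, with an SD of 0.02, while MS 7.2 was low. With all mice the log2 fold change was -0.03 (-0.20 to 0.14), and without MS 7.2 it was 0.04.

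Of the tenascins, Tnr encodes tenascin-R, which oligodendrocytes and some neurons make and which crosslinks lecticans. Its probe A_55_P1974957 (chr1:161854449-161854508, mm9, plus strand) gave -0.71, -0.60, -0.70 and -0.81 in MS 5.3, 7.1, 7.2 and 7.6, against -0.71, -0.45, -0.53 and -0.63 in Control 6.2, 8.2, 8.4 and 8.5. Their difference made a log2 fold change of -0.13 (SE 0.08, 95% interval -0.30 to 0.05, adjusted p = 0.989 in limma, exact permutation p = 0.171), and the groups overlapped through MS 7.1 and Control 6.2. It was -0.21 in slide row 1 and -0.04 in slide row 2.

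Tnc encodes tenascin-C, a matrix protein of development and injury that astrocytes can make. Neither of its probes on chromosome 4 was tested. A_55_P2421597 was well above background on 3 arrays, 1 MS and 2 control, with signals of -6.00, -6.36, -5.64 and -5.76 in MS 5.3, 7.1, 7.2 and 7.6, against -5.29, -5.59, -6.52 and -5.98 in Control 6.2, 8.2, 8.4 and 8.5. A_52_P355169 was well above background on 0 arrays. A difference in Tnc was therefore not detectable at this signal.

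Ptprz1 encodes a receptor phosphatase of glia that binds tenascin-R and the growth factor pleiotrophin. It is made as a membrane receptor and as phosphacan, its secreted extracellular part, which is itself a chondroitin sulfate proteoglycan. Bases 31 to 60 of its 3 probes are shown, of which the third, named by the sequence AK140648, was dim.
Ptprz1, A_55_P2000439 (chr6:23002114-23002173, mm9, plus strand): tgcattgtctctttctaaaattagaaaaaa
Ptprz1, A_51_P206405 (chr6:23002046-23002106, mm9, plus strand): tggagatatagctgaagcctggaatcttta
Ptprz1, A_55_P2173682 (chr6:23000686-23000745, mm9, plus strand): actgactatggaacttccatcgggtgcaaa
The first gave 4.51, 4.41, 4.46 and 4.46 in MS 5.3, 7.1, 7.2 and 7.6, against 4.33, 4.45, 4.41 and 4.48 in Control 6.2, 8.2, 8.4 and 8.5, a log2 fold change of 0.04 (-0.09 to 0.17). The second gave 4.37, 4.40, 4.35 and 4.30 in the MS mice, against 4.35, 4.33, 4.36 and 4.42 in the control mice, a log2 fold change of -0.01 (-0.12 to 0.11) that was 0.01 with median scaling. These were the steadiest member probes, and their SD over the 8 mice was larger than in 4.21% and 0.638% of all probes tested.

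The third Ptprz1 probe was dim, above background on 3 MS and 3 control arrays. It gave -5.48, -5.03, -5.33 and -5.70 in MS 5.3, 7.1, 7.2 and 7.6, against -4.91, -4.67, -4.60 and -5.51 in Control 6.2, 8.2, 8.4 and 8.5. Of the control mice, only 8.5 lay within the MS range. Its log2 fold change was -0.46 (SE 0.22, 95% interval -0.96 to 0.04, adjusted p = 0.989 in limma, exact permutation p = 0.143), with -0.77 in slide row 1 and -0.15 in slide row 2. With normexp this log2 fold change was -0.13, and in the authors' table it was -0.11. Whether the third probe reads another transcript than the first and second was not tested.

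The order of the mice was counted over the tested member probes and is given beside the shares of all probes tested. Whether the counts differ from these shares was not tested. MS 7.6 was the lowest of the 8 mice for 4 of the 14 tested probes (19.2% of all probes tested were lowest there), and Control 8.5 for 5 (22.3%). Control 8.4 was the highest for 4 (9.63%). Within the slide rows, where 2 MS mice stand against 2 control mice, the groups lay apart for 6 of 14 probes in row 1 (34.4% of all probes tested) and for 5 in row 2 (30.1%). The sign of the difference was the same in both rows for 7 of 14 probes, as for 48.2% of all probes tested.

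Among the 10 relations with markers of cells known to make or carry these proteins, only that of Hapln2 passed after adjustment, by Pearson's r and not by Spearman's rho. With parvalbumin fast-spiking neurons (7 genes), r over the 8 mice was 0.38 for Acan, 0.56 for Hapln1 and 0.14 for Hapln4, and rho was 0.86, 0.33 and 0.07 in the same order. Tnr with the myelin genes had an r of 0.40 and a rho of 0.69, and Vcan with oligodendrocyte precursors (6 genes) had -0.18 and 0.21. With astrocytes (11 genes), r was -0.03 for Bcan, 0.35 for Ncan and 0.00 for Ptprz1, and rho was -0.02, 0.24 and 0.00. The exact permutation p of r for these 8 relations was 0.154 to 0.991, and 0.77 to 0.991 after adjustment over the 10. The lowest p of rho was that of Acan (exact permutation p = 0.0107, adjusted 0.107). The relation of Tnc with astrocytes is counted among the 10, but its value is not given because the probe was above background on only 3 arrays.

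Without the 2 mice farthest from the median of the list, r was 0.66 for Acan, -0.04 for Hapln1, 0.44 for Hapln4 and 0.76 for Tnr. It was then 0.91 for Ncan (exact permutation p = 0.0153 over 6 mice, without adjustment), 0.07 for Bcan, -0.02 for Ptprz1 and -0.15 for Vcan. On the other scales r of Ncan was lower over 6 mice. It was 0.56 with quantile normalization, 0.59 with normexp and 0.74 in the authors' table (exact permutation p = 0.221, 0.206 and 0.0833). With deviations from the group means, where MS 5.3 was left out in place of MS 7.2, it was 0.33. The mice left out were Control 8.4 and 8.5 for the parvalbumin and myelin lists, MS 7.2 and Control 8.2 for astrocytes, and MS 7.2 and Control 6.2 for the precursors. The parvalbumin list was at 1.03 to 1.14 in the MS mice, against 1.03 to 1.16 in 3 control mice and 0.82 in Control 8.5. For Acan, Control 8.5 (-2.02) was the lowest control mouse, and only MS 7.2 (-2.27) lay below it.

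The genes whose levels were most like those of a member over the 8 mice were taken for the 3 tested member genes with the largest SD of their brightest probe, as a description with no test. For Hapln2 they were Mboat1 (r = 0.99), Ppp1r14a (0.98) and C530005A16Rik (0.98). For Hapln1 they were Vbp1 (0.97), Csf2rb2 (0.95) and Nxph3 (0.95), and for Acan they were Apbb2 (0.96), Nrbp1 (0.96) and Pabpc4 (0.94). These are the 3 highest r per member among the other named genes tested, over only 8 mice. Whether they exceed what such picking alone would give was not tested.

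The other genes that build, cut or read this matrix were compared in 5 lists with 1 probe per gene, and none of their genes passed the test in either direction. Named from each list are the genes with the lowest p above and below 0, and the adjusted p of these was 0.989 in limma. Of the enzymes of chondroitin sulfate synthesis, 21 of 21 were tested, 10 above and 11 below 0, with a median log2 fold change of 0.00 beside 0.01 for all genes. Above 0 this was Xylt1, which starts the chains by adding xylose, at 0.16. Below 0 it was Chst12, a sulfotransferase of chondroitin, at -0.15, with 0.04, -0.04, -0.02 and -0.11 in MS 5.3, 7.1, 7.2 and 7.6, against 0.27, 0.10, -0.01 and 0.09 in Control 6.2, 8.2, 8.4 and 8.5.

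Of 13 genes that make, bind or break down hyaluronan, 11 were tested, with a median of 0.00. Of the hyaluronan synthases, Has1 had a log2 fold change of 0.16 and Has2, above background on 7 arrays, of -0.29, while Has3 was not tested. Both had the opposite sign in slide row 1 alone, at -0.0036 and 0.02. The 15 tested of 17 matrix proteases and inhibitors had a median of -0.01. The metalloprotease Mmp9, which can cut components of perineuronal nets, was at 0.09, and Timp1, an inhibitor of such proteases, at -0.27.

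The 14 tested of 15 receptors and binding partners of the matrix had a median of -0.01. Here Rtn4rl1 and Rtn4r, which encode a relative of the Nogo receptor and that receptor itself, were at 0.16 and -0.23. The list of other brain proteoglycans had 21 of 21 genes tested. Of these, 5 lay above 0 and 16 below, against 9279 above and 8035 below among all genes tested. The list had a median of -0.07. Its gene of lowest p below 0 was Sdc4, a syndecan of the cell surface, with -0.80, -0.74, -0.62 and -0.86 in MS 5.3, 7.1, 7.2 and 7.6, against -0.68, -0.58, -0.48 and -0.61 in Control 6.2, 8.2, 8.4 and 8.5. The log2 fold change was -0.17, and MS 7.2 overlapped with the control mice. Sdc4 was the 1 gene of the 5 lists with an unadjusted p under 0.05 in limma. Among all 17314 genes tested, 163 above 0 and 297 below 0 had such a p. The gene of lowest p above 0 was Cspg5, also known as neuroglycan C, at 0.05.

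The farthest from 0 in that list were Lum and Dcn, small proteoglycans of connective tissue, at -0.46 and -0.33, named after their values were seen. They also stand in the list of fibroblasts and meninges, of which 8 of 8 tested genes lay below 0 and 0 passed, with 0 at an unadjusted p under 0.05 in limma. Its median log2 fold change was -0.17, and -0.58 to 0.01 when each mouse was left out. The mean level of that list was -0.39, -0.68, -0.68 and 0.77 in MS 5.3, 7.1, 7.2 and 7.6, against -0.11, -0.87, 0.20 and 0.68 in Control 6.2, 8.2, 8.4 and 8.5. MS 7.6 and Control 8.5 were thus high in it, and its part in the values of the proteoglycan list was not tested.

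**Figure D4:**
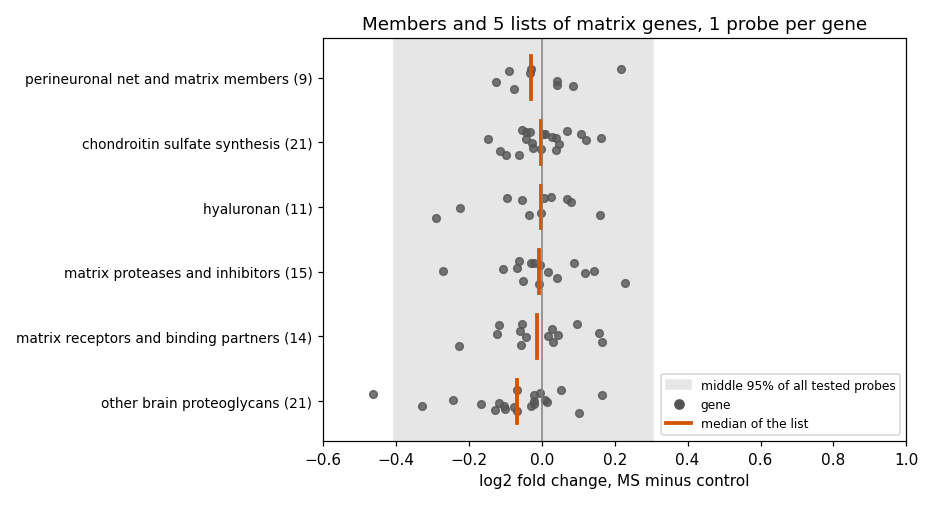
Each point is the log2 fold change (MS minus control) of 1 gene, in the members and in 5 lists of matrix genes with the number tested in parentheses, points being spread up and down at random. Orange lines are medians, which lie between -0.07 and 0.00, and the grey band holds the middle 95% of all tested probes (-0.41 to 0.30).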

How the data were processed

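Arrays of the HT of 8 mice were analysed. Per the file headers, the authors extracted spot intensity with Agilent Feature Extraction 10.10.1.1 (build mm9, array design 028005, which is another number than in the paper's methods). The processed intensity has its background removed and a substitute for spots too weak to measure. A log2 table of 34970 probes, deposited too, served as an alternative, and its normalization was not stated.

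Control and outlier spots were left out, log2 processed signals were averaged per probe (59305 spots, 55681 probes), and the array's 75th percentile was subtracted. The 37314 probes well above background on 4 or more arrays were tested with lmFit and eBayes of limma 3.58.1 in R 4.3.3, two-sided, without covariates, at a Benjamini-Hochberg adjusted p under 0.05 over all of them. The code was tested on simulated data. Levels were compared between mice only, never between probes. Precision depends on the 8 arrays. Of the 55681 probes, 27235 were named by accession through a RefSeq gene table, 3581 by symbol, 565 by an older symbol, and 24300 stayed unnamed. The tested probe of highest mean signal stood for its gene. No mm9 genome was used, so exons and UTRs are not given.

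Named genes were all 10 members with every probe and, from each matrix list, the genes with the lowest p above and below 0. Correlations used all pairings of 8 mice. Members, lists and tests were chosen with earlier results of these data known. Alternatives were quantile or median scaling, normexp (offset 50), the authors' table, no or a stricter filter on dim probes, blocks by slide row or by the number before the dot of a mouse, another variance model, array weights, the mean of a gene's probes, each slide row alone and leaving out each mouse.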

Additional observations from a re-analysis of the deposited data

Results flagged for a closer look

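In 4 of 32 groups of 4 mice (16 probes in each group), 1 mouse lay far from the other 3 by Dixon's criterion. For normally distributed values this criterion marks about 1 in 20 groups. The share that it marks among all probes was not counted, and the 32 groups come from the same 8 mice. MS 7.2 was the lowest MS mouse for Acan A_51_P462271 (-2.27), for Hapln4 A_51_P490924 (0.26) and for Tnc A_52_P355169 (-7.47), a probe that was above background on 0 arrays. Control 8.5 was the lowest control mouse for the dim Vcan A_52_P1044655 (-5.84).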

How the results depend on the processing

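No call changed: 0 member probes passed at an adjusted p under 0.05 in any of the 12 alternative fits or when each mouse was left out. Over all probes, 1 passed with a random block by the leading number of the mice (C80406, log2 fold change -0.91) and 1 in slide row 2 alone (A_30_P01030152, a probe without a gene name, 5.75), both named after their values were seen, against 0 in the other fits. The member groups lay apart for 6 probes in slide row 1 (34.4% of all probes tested) and for 5 in slide row 2 (30.1%). With a mouse left out they lay apart for 0 to 1 (Hapln1 without MS 7.1, Ncan without MS 7.2, the dim Ptprz1 probe without Control 8.5). In these 3 cases the mouse left out was the one that overlapped. The share of all probes was not counted with a mouse left out. The median of the 9 genes, -0.03 with all mice, was 0.056 in slide row 2 and -0.037 to 0.040 with a mouse left out.

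Log2 fold changes near 0 turned sign as follows. Bcan A_55_P1971599 (0.04) was -0.014 with quantile normalization, -0.013 with normexp, -0.0072 in the authors' table, -0.0060 with array weights, -0.045 in slide row 1 and -0.0041 without Control 8.5. Vcan A_55_P1960208 (-0.01) was 0.0055 with quantile normalization, 0.010 with median scaling, 0.0086 with normexp, 0.011 with the random block, 0.0026 in slide row 2, 0.032 without MS 5.3, 0.014 without Control 6.2 and 0.0056 without Control 8.5. Vcan A_55_P1960202 was 0.016 in slide row 2 and 0.0043 without MS 5.3. Ptprz1 A_51_P206405 (-0.01) was 0.013 with median scaling and with array weights, 0.017 in slide row 1, 0.010 without MS 7.6 and 0.010 without Control 8.5, and the mean of the 3 Ptprz1 probes was -0.14. In slide row 2, Acan was 0.056, Hapln2 0.071 and Hapln4 0.024. Hapln2 was 0.069 without Control 8.4 and Hapln4 0.036 without MS 7.2. In slide row 1, Has1 was -0.0036, Has2 0.024 and Cspg5 -0.024. For r over the mice, Hapln4 with the parvalbumin list was -0.10 with normexp and -0.033 in the authors' table, and with deviations from the group means Ncan and Ptprz1 with astrocytes were -0.088 and -0.50. Over all 8 mice, the r of Hapln2 with the myelin list was 0.93 to 0.95 under the 4 alternatives, and 0.69 to 0.83 without the 2 farthest mice of each.

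No paired analysis was possible because MS and control mice share no number in the labels. With 4 mice a group and dim signals for Tnc and for 1 probe each of Vcan and Ptprz1, changes in these were poorly measured.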
